A study of Mus musculus with 20 samples.

Results

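The comparison described here sets the livers of TSP-1 null mice against those of wild type (WT) mice after 12 weeks on CDAHFD, a high fat diet that lacks choline and holds defined amino acids in place of protein, and that gives mice a fatty, inflamed and fibrotic liver. It covers every gene with an FPKM (fragments assigned to a gene, scaled to its length and to the library's total) above 0.5 in at least 5 of the 10 CDAHFD libraries, which left 14073 genes of the 38924 in the deposited table. Each group held 5 male mice: HFWT, C57BL/6J mice on CDAHFD, and HFKO, mice of a TSP-1 knockout line on the same diet. Control diet groups of 5, NDWT and NDKO, were fed for the same 12 weeks and are used where the difference on the 2 diets is set side by side. All mice were bought at 5 weeks of age and had 1 week to settle before the diets began. The null mice came as a line of their own and are not described as littermates of the WT mice, so the null allele and any other difference between the lines cannot be told apart. The study's description names the right medial liver lobe as the source of the RNA, while its methods name the right lateral lobe.

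TSP-1, the product of Thbs1, is a large secreted glycoprotein of the extracellular matrix, released by platelets, endothelium, macrophages and activated stellate cells. It can free TGF-β1 from its latent complex, and it binds the cell surface receptors CD36 and CD47. In steatohepatitis, fat-laden hepatocytes are damaged, macrophages gather, and stellate cells turn into collagen-producing myofibroblasts. The hepatocytes themselves differ along the liver lobule: those near the portal tract make urea and glucose, and those around the central vein make glutamine and hold much of the cytochrome P450.

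Thbs1 (ENSMUSG00000040152.8, chr2:118111876-118127133, coordinates here and below on GRCm38) did not separate the labels. Its FPKM was 5.77, 6.099, 3.46, 3.91 and 3.86 in HFWT and 3.304, 3.32, 3.05, 3.14 and 4.398 in the libraries labelled HFKO. The groups overlapped, and the difference did not pass the test (log2FC -0.39 ± 0.24 SE, FDR = 0.403). On the control diet the libraries labelled NDKO held more Thbs1 than NDWT (log2FC 2.28 ± 0.24 SE, FDR = 9.75e-06). The table gives 1 value for the whole gene, so reads from the altered stretch of the locus are not seen apart, and HFKO and NDKO below mean the libraries so labelled.

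The 10 CDAHFD libraries held 15641545 to 22079368 fragments assigned to genes, and 12423 of the 14073 genes lay above the cut in all 10. The tissue label fits its markers: Alb, the main plasma protein made by hepatocytes, took 3.45% to 7.12% of the fragments, and Ttr, Apoa1 and Hnf4a were present in every library. HFWT5 stood apart. Gm26924, a noncoding gene, took 4.47% of its fragments. It took 0.499% to 0.712% in the other HFWT libraries and 0.963% to 1.83% in the HFKO libraries, ranges that did not overlap. HFWT5 also lay at a score of -52.4 on the second principal component, with the other 9 between -5.82 and 19.1. Without HFWT5 there were 55 differentially expressed genes (DEGs) instead of the 72 given next, 49 of them shared. The count was 37 without HFKO4 and 41 when the 10 CDAHFD libraries were fitted alone. The number of higher DEGs, 24, became 14 without HFWT3, 15 without HFWT5 or HFKO3 and 11 without HFKO4, and the number of lower DEGs, 48, became 30 without HFWT2, 31 without HFKO1 and 26 without HFKO4.

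On CDAHFD 72 genes differed between the genotypes, 24 higher and 48 lower in HFKO. A DEG had a Benjamini-Hochberg FDR under 0.05 in limma, fitted to log2(FPKM + 0.1) in all 20 libraries, and an absolute log2FC above 0.58, about 1.5-fold. The DEGs made up 0.512% of the genes tested, 0.171% higher and 0.341% lower. Another 96 genes passed the FDR with a smaller difference, 13 higher and 83 lower. The median absolute log2FC of the DEGs was 0.98, and 34 of them differed more than 2-fold. In 64 of the 72 the 5 HFKO libraries did not overlap the 5 HFWT libraries, a pattern that 5.09% of all genes tested showed. Egr1, Gm10222, Gls2, Nr1h5, AI662270, Rhbg, Gdf3 and Mup-ps7 were the 8 DEGs with overlap.

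The table as a whole leaned to lower values in HFKO. The median log2FC over all 14073 genes was -0.10, and 71.0% of genes had a negative value. After scaling by the median of ratios, which sets that median near 0, the split of the DEGs turned to 39 higher and 26 lower, and after quantile normalization to 76 higher and 50 lower. Of the 72 DEGs, 49 were called under both scalings, among them all 24 that were higher. The first principal component of the 10 libraries, 20.2% of the variance, had a mean score of 16.2 ± 16.2 (SD, n = 5) for HFKO against -16.2 ± 13.3 for HFWT and did not pass (exact permutation test, two-sided, p = 0.0159, 0.0635 after adjustment over 4 components). The groups overlapped on it, with HFKO5 at -7.69 and HFWT5 at 3.36. Without HFKO4 the means on the first component were 2.49 for HFKO and -1.99 for HFWT (exact permutation p = 0.778). The second component then held 18.4% of the variance, beside 20.1% for the first. Its means were -20.9 ± 4.98 (SD) for HFKO and 16.7 ± 7.72 for HFWT, and it passed (exact permutation p = 0.00794, 0.0317 after adjustment over 4 components).

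**Figure D1:**
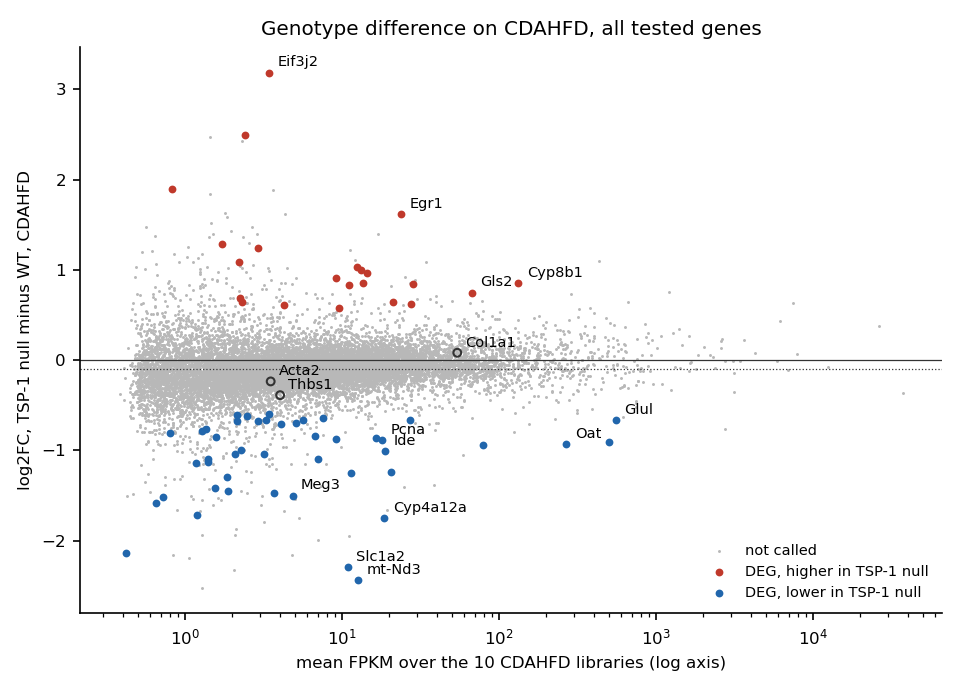
Log2FC of HFKO minus HFWT (vertical axis) against mean FPKM over the 10 CDAHFD libraries (horizontal log axis) for the tested genes, with DEGs in red where higher and blue where lower, open circles for Thbs1, Acta2 and Col1a1, and 5 DEGs with a group at 3 fragments or fewer left out. The cloud is centred just below 0 (dotted line, median log2FC -0.10), and abundant genes such as Glul, Oat, Sord and Cyp8b1 stand outside it along with genes near the lower cut.

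Several genes of glutamine, glutamate and ammonia handling were among the DEGs. Glul, Rhbg and Oat, whose products make glutamine from ammonia, carry ammonia across the membrane and break down ornithine to glutamate, were 0.534-fold (Oat), 0.547-fold (Rhbg) and 0.621-fold (Glul) of WT in HFKO by mean FPKM. Gls2, the liver glutaminase that releases ammonia from glutamine near the portal tract, was higher. Slc1a2, the glutamate transporter GLT-1 of hepatocytes around the central vein, was the DEG with the largest fall after 3 mitochondrial transcripts and a small nucleolar RNA.

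Glul (ENSMUSG00000026473.9, chr1:153899944-153909723) codes for glutamine synthetase, which in a healthy liver is restricted to the hepatocytes next to the central vein. Its FPKM was 944, 707, 647, 488 and 635 in HFWT and 443, 429, 469.8, 428 and 353 in HFKO. Every HFKO library lay below every HFWT library (log2FC -0.66 ± 0.13 SE, FDR = 0.0168). Rhbg (ENSMUSG00000001417.4, chr3:88242874-88287210), an ammonia transporter of the same cells, had an FPKM of 29.4, 20.7, 22.02, 19.03 and 14.8 in HFWT and 10.2, 16.7, 10.6, 8.55 and 11.97 in HFKO. Only HFKO2 reached into the WT range, and the gene was lower in HFKO (log2FC -0.87 ± 0.18 SE, FDR = 0.0225). Slc1a2 (ENSMUSG00000005089.9, chr2:102658659-102790784) had an FPKM of 17.8, 20.1, 18.7, 13.7 and 20.6 in HFWT and 3.54, 5.07, 3.204, 2.81 and 3.68 in HFKO. Its lowest WT library lay more than 2-fold above the highest HFKO library (log2FC -2.30 ± 0.17 SE, FDR = 6.04e-08).

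Oat (ENSMUSG00000030934.8, chr7:132557475-132576398), the mitochondrial ornithine aminotransferase, had an FPKM of 385, 353, 341, 280.3 and 390.5 in HFWT and 174, 185, 264, 183 and 127 in HFKO. Both groups came close in HFKO3 and HFWT4 but did not overlap (log2FC -0.93 ± 0.16 SE, FDR = 0.00459). Its neighbour Lhpp (ENSMUSG00000030946.6, chr7:132610638-132706420), a phosphatase that acts on phosphorylated histidine and lysine and starts 34.2 kb away, had an FPKM of 35.5, 35.05, 31.7, 31.4 and 32.8 in HFWT and 16.7, 21.8, 26.7, 20.97 and 19.7 in HFKO. Lhpp was lower without overlap (log2FC -0.67 ± 0.11 SE, FDR = 0.00284). The 12 other tested genes within 1 Mb of the pair had log2FCs from -0.31 to 0.11, and none was called.

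Gls2 (ENSMUSG00000044005.7, chr10:128194457-128210004) went the other way. Its FPKM was 34.4, 42.02, 52.01, 76.2 and 51.6 in HFWT and 84.1, 95.3, 85.4, 87.6 and 65.8 in HFKO. HFWT4 alone lay inside the HFKO range, and Gls2 was higher in HFKO (log2FC 0.75 ± 0.17 SE, FDR = 0.0362). Of the 13 genes of the urea cycle and ammonia handling, these 3, Glul, Rhbg and Gls2, were the DEGs (0.512% of all genes were), and 11 had a positive log2FC. Arg1, the arginase that ends the urea cycle (log2FC 0.47, FDR = 0.135), and Ass1, argininosuccinate synthase (log2FC 0.40, FDR = 0.153), were not called.

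Wider lists of zonated genes were drawn up after the values had been seen and hold the DEGs just named, so their counts, medians and sums are a description and no support for a zonal pattern. Of 28 pericentral hepatocyte genes, all tested, 5 were lower (Glul, Rhbg, Oat, Slc1a2 and Lhpp; 0.341% of all genes were), none was higher, 23 had a negative log2FC, and the median was -0.36 beside -0.10 over all genes. Cyp2e1, the pericentral P450 that oxidises ethanol, had a log2FC of -0.35 (FDR = 0.122). Of 20 periportal genes 1, Gls2, was higher, none was lower, 17 had a positive log2FC, and the median was 0.43. Fbp1, a gluconeogenic phosphatase, passed the FDR below the fold threshold (log2FC 0.48, FDR = 0.0347). Hal, which starts histidine breakdown (log2FC 0.65, FDR = 0.0985), Pck1, which starts gluconeogenesis (log2FC 0.64, FDR = 0.105), and Cyp2f2 (log2FC 0.48, FDR = 0.0744) were not called. Summed FPKM over the pericentral list ran from 5911 to 7039 in HFWT and from 3838 to 5325 in HFKO, without overlap. Over the periportal list it ran from 3177 to 4019 in HFWT and from 4469 to 5148 in HFKO, again without overlap. In bulk tissue fewer cells of a type and less RNA per cell cannot be told apart.

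**Figure D2:**
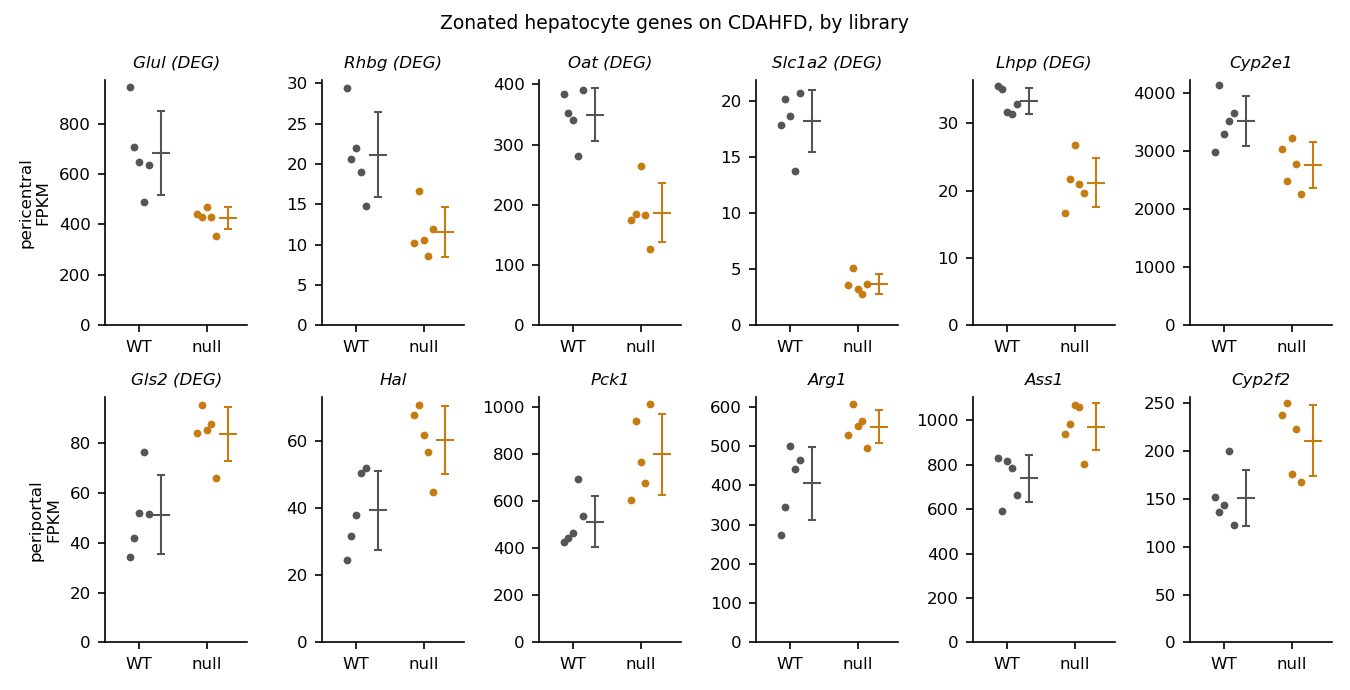
FPKM (vertical axes, from 0) of 6 pericentral genes (top) and 6 periportal genes (bottom) in the 5 WT (HFWT, grey) and 5 TSP-1 null (HFKO, orange) CDAHFD libraries, 1 point per mouse, with the mean and SD beside each group. Glul, Oat, Slc1a2 and Lhpp show no overlap, Rhbg and Gls2 overlap by 1 library, and Cyp2e1 and the other 5 periportal genes shown are not DEGs.

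The call for Glul ended under median of ratios scaling and when HFWT1 was left out, and that for Lhpp under the same scaling. Those for Glul, Rhbg and Gls2 ended when the 10 CDAHFD libraries were fitted alone. The call for Gls2 also ended with the replicate number as a block in the limma fit (FDR = 0.0693). Glul was called without 19 of the 20 mice in turn, Rhbg without 14 and Gls2 without 12. Slc1a2 lies 15.4 Mb from Thbs1 on chromosome 2 and was also lower on the control diet (log2FC -1.31), where the pericentral median was -0.01. Oat and Slc1a2 were called under each of the 14 alternatives and without each of the 20 mice.

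Promoter sequences of these pericentral genes are shown because many genes of this zone respond to Wnt signals, through TCF factors that bind CTTTGA or its reverse complement TCAAAG. Each line gives the 250 bases before the RefSeq start on GRCm38.p6, 5′ to 3′ on the gene's strand, at chr1:153899679-153899928 (plus strand) for Glul, chr7:132576399-132576648 (minus) for Oat and chr2:102706188-102706437 (plus) for Slc1a2, with matches in capitals.
Glul: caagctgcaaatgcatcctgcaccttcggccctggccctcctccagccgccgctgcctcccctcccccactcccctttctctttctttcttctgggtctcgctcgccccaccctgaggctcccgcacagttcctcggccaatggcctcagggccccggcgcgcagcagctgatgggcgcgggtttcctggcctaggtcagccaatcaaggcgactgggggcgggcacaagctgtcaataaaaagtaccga
Oat: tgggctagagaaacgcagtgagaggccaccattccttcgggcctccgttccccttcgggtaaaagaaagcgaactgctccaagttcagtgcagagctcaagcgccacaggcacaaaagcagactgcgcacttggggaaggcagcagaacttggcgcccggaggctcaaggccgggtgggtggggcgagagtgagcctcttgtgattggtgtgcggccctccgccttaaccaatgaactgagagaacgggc
Slc1a2: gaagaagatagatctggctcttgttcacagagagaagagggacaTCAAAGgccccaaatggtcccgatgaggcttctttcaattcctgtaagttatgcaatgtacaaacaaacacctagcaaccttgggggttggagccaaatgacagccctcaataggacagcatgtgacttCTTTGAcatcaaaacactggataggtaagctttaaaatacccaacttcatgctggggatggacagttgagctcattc
The Slc1a2 window held 1 match on each strand, and those of Glul and Oat held none. The Slc1a2 window precedes an internal RefSeq start and lies inside the gene's span (chr2:102658659-102790784). Those of Glul and Oat lie just outside the spans given above. The 6 letters occurred on either strand in 1059 of 9589 promoters of tested genes (11%) with an entry of this length.

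In lipid and bile acid metabolism 4 enzyme genes are described first. Lpin1 and Cyp8b1 were higher and the paired P450 genes Cyp4a12a and Cyp4a12b were lower. None of the 25 tested genes of mitochondrial β-oxidation, the 32 PPARα target genes or the 7 ketogenesis genes was a DEG.

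Lpin1 (ENSMUSG00000020593.8, chr12:16535669-16589770) codes for a phosphatidate phosphatase of triglyceride synthesis that also acts as a transcriptional coactivator. Its FPKM was 6.89, 6.06, 7.41, 5.67 and 5.74 in HFWT and 11.9, 10.8, 12.3, 12.2 and 12.9 in HFKO. All HFKO libraries lay above all HFWT libraries (log2FC 0.91 ± 0.21 SE, FDR = 0.0391). Cyp8b1 (ENSMUSG00000050445.4, chr9:121914356-121916305), the sterol 12α-hydroxylase that sets the cholic acid share of bile acids, had an FPKM of 52.4, 119.6, 106, 129 and 77.2 in HFWT and 148, 201.2, 142, 191 and 159 in HFKO. Its groups did not overlap, with HFWT1 lowest (log2FC 0.85 ± 0.20 SE, FDR = 0.0418). Both calls depended on single mice: Lpin1 was called without 9 of the 20 mice in turn and Cyp8b1 without 5. 1700048O20Rik, which lies 21.8 kb from Cyp8b1, rose from 0.275 ± 0.108 to 1.37 ± 0.657 FPKM (mean ± SD, n = 5; log2FC 1.89 ± 0.41 SE, FDR = 0.0278), and none of its HFWT libraries passed the cut of 0.5.

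Most nearby fatty acid genes shared a direction on CDAHFD without passing. In β-oxidation 22 of 25 genes had a positive log2FC, with a median of 0.10. The carnitine transferase genes Cpt1a (log2FC 0.36, FDR = 0.133) and Cpt2 (log2FC 0.27, FDR = 0.115) and the acyl-CoA synthetase Acsl1 (log2FC 0.36, FDR = 0.195) were among those with the lowest p. Among PPARα targets 23 of 32 were positive, with a median of 0.20. Elovl3, a fatty acid elongase outside that PPARα list, lay lower without overlap but was not called (log2FC -0.96, FDR = 0.137). Cholesterol biosynthesis, 24 genes, had a median of -0.10, the same as the table, and no DEG. On the control diet the fatty acid lists leaned the other way, beside a median of -0.07 over all genes. There 21 of 25 β-oxidation genes (median -0.19), 21 of 32 PPARα targets (median -0.20) and 6 of 7 ketogenesis genes (median -0.24) were negative. The lists were not tested between diets.

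Cyp4a12a (ENSMUSG00000066071.6, chr4:115299046-115332815) and Cyp4a12b (ENSMUSG00000078597.2, chr4:115411624-115439034) are male-biased fatty acid ω-hydroxylases that lie 78.8 kb apart. Cyp4a12a had an FPKM of 47.9, 20.9, 33.8, 25.2 and 16.5 in HFWT and 6.9, 12.6, 6.404, 5.33 and 10.44 in HFKO (log2FC -1.75 ± 0.24 SE, FDR = 0.000451). For Cyp4a12b the values were 20.3, 15.7, 22.02, 10.5 and 12.8 in HFWT and 6.11, 7.15, 7.33, 4.82 and 7.67 in HFKO (log2FC -1.25 ± 0.17 SE, FDR = 0.000447). Neither gene showed overlap, and both were called under every alternative and without each mouse. Their coding sequences are 98.7% identical (20 of 1523 aligned bases differ), and 1487 of their 31-base words are shared, so reads can be assigned to either copy with uncertainty. Their sum over both genes was 109 ± 39.2 ppm of the assigned fragments in HFWT and 36.0 ± 9.48 in HFKO. The stretch below shows how alike they are, with the 5 differing bases in capitals (positions 435 to 554 of the Cyp4a12a coding sequence, 5′ to 3′).
Cyp4a12a: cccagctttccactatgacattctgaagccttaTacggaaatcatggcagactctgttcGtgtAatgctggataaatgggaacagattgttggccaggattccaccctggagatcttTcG
Cyp4a12b: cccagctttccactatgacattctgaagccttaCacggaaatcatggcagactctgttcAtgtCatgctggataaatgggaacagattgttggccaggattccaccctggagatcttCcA

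These were the only DEGs among 25 tested male-biased, growth hormone dependent genes, of which 23 had a negative log2FC (median -0.66). Mup21, a major urinary protein, was among those not called: its FPKM was 65.9, 30.6, 62.1, 52.2 and 53.6 in HFWT and 19.8, 42.6, 20.6, 5.53 and 29.3 in HFKO (log2FC -1.38 ± 0.40 SE, FDR = 0.0914). The 16 female-biased genes held no DEG, with 10 positive and a median of 0.47. Within that list values were spread from Cyp17a1, a steroid hydroxylase (log2FC 1.36, FDR = 0.136), to Sult1e1, an oestrogen sulfotransferase (log2FC -1.99, FDR = 0.0918). Sult1e1 had an FPKM of 18.3, 8.89, 10.9, 12.7 and 5.37 in HFWT and 2.301, 3.4, 5.12, 1.17 and 2.21 in HFKO, without overlap and short of the threshold.

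Several other metabolic genes were higher. Ulk1 (ENSMUSG00000029512.7, chr5:110784488-110810097), a kinase that starts autophagy, had an FPKM of 15.7, 17.5, 17.7, 18.3 and 13.98 in HFWT and 27.1, 24.96, 24.8, 25.2 and 27.2 in HFKO (log2FC 0.64 ± 0.12 SE, FDR = 0.0155). No library crossed into the other group's range. Sfxn1 (ENSMUSG00000021474.8, chr13:54071845-54108346), a mitochondrial serine carrier, had an FPKM of 15.6, 20.8, 23.5, 24.3 and 24.9 in HFWT and 31.7, 32.9, 31.5, 37.4 and 32.4 in HFKO (log2FC 0.62 ± 0.10 SE, FDR = 0.00269). It was called without 18 of the 20 mice. Slco2a1 (ENSMUSG00000032548.8, chr9:103008489-103087849), a prostaglandin transporter, had an FPKM of 9.36, 12.5, 9.002, 8.999 and 7.78 in HFWT and 19.01, 15.2, 14.1, 26.5 and 13.6 in HFKO (log2FC 0.86 ± 0.15 SE, FDR = 0.00599). Its lowest HFKO library was just above its highest WT library, and its call ended when the 10 CDAHFD libraries were fitted alone. In the list of prostaglandin synthesis and annexin genes, 21 tested, there was no DEG and the median was -0.30.

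Amino acid breakdown, 57 genes, held 1 DEG, Oat. Ivd of leucine breakdown (log2FC -0.45, FDR = 0.00326), Amdhd1 of histidine breakdown (log2FC 0.50, FDR = 0.0224) and Agxt2, an aminotransferase (log2FC -0.44, FDR = 0.0441), passed the FDR with less than the required fold. The list's median was 0.04.

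Scar and inflammation genes gave few calls. None of 40 matrix genes, 19 stellate cell and myofibroblast genes or 23 TGF-β ligands and response genes was a DEG, nor any of 44 cytokines and chemokines or 42 interferon-stimulated genes. At an unadjusted p under 0.05 the last 2 lists held 10 and 17 genes. Over all genes tested, 17.5% had an unadjusted p under 0.05. These lists do not hold every gene of their kind. The DEGs Gdf3, a TGF-β family ligand, Chad, a matrix protein, and the interferon-induced Mnda and Tgtp2 are in none of them. Their values are given below.

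Col1a1, the main fibrillar collagen chain of scar, had an FPKM of 84.5, 59.7, 44.99, 42.1 and 34.1 in HFWT and 54.7, 55.6, 56.9, 32.6 and 76.5 in HFKO (log2FC 0.08 ± 0.30 SE, FDR = 0.913). The HFKO range lay almost inside that of HFWT. Col3a1 (log2FC -0.28, FDR = 0.506), Acta2, the smooth muscle actin of myofibroblasts (log2FC -0.24, FDR = 0.7), Tgfb1 (log2FC 0.01, FDR = 0.976) and Tnf (log2FC -0.08, FDR = 0.88) were not called either, with overlap in each. The sign of Tnf turned under both scalings, and those of Tgfb1 and Col1a1 when 1 of several mice was left out. Matrix genes had a median log2FC of -0.07, stellate genes -0.11 and TGF-β genes -0.11, all near the -0.10 of the whole table. The matrix median was 0.03 under median of ratios scaling. Dcn (log2FC -0.40, FDR = 0.0947) and Lum (log2FC -0.50, FDR = 0.114), small proteoglycans that bind collagen, had the lowest p of the matrix list.

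The receptors of TSP-1 did not pass. Cd47 (ENSMUSG00000055447.12, chr16:49855618-49915010) had an FPKM of 20.95, 22.7, 21.7, 21.2 and 21.2 in HFWT and 18.2, 18.7, 18.7, 18.1 and 20.3 in HFKO. Those ranges did not overlap, but the difference was small (log2FC -0.19 ± 0.06 SE, FDR = 0.113). Cd36, the scavenger receptor and fatty acid translocase, had an FPKM of 81.5, 108, 114, 85.3 and 119.8 in HFWT and 85.3, 86.6, 90.9, 75.01 and 93.4 in HFKO (log2FC -0.22 ± 0.27 SE, FDR = 0.692). Thbs2, the closest relative of Thbs1, was likewise not called (log2FC -0.46, FDR = 0.177).

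Several immune lists leaned lower without calls. Interferon-stimulated genes had 41 of 42 negative values (median -0.39), cytokines and chemokines 37 of 44 (median -0.25), lipid-associated macrophage genes 19 of 20 (median -0.39) and T and B lymphocyte genes a median of -0.42 over 27. The signs of these medians were the same under both scalings. Spp1, osteopontin (log2FC -0.59, FDR = 0.0744), Lgals3, galectin-3 (log2FC -0.59, FDR = 0.113), and Gbp7, an interferon-induced GTPase (log2FC -0.62, FDR = 0.0635), had values that fell short. Summed FPKM over 24 macrophage genes, of which 23 were tested, ran from 2140 to 2834 in HFWT and from 1346 to 2702 in HFKO. Over 14 Kupffer cell genes, those of the resident liver macrophage, it ran from 634 to 909 in HFWT and 590 to 1165 in HFKO. The median log2FC of the 12 Kupffer cell genes tested was 0.16, and that of the 7 neutrophil genes tested was -0.055. A lower lean was not limited to immune lists. Of 17 cholangiocyte and ductular cell genes tested, 15 were negative, with a median of -0.41 and no DEG. Their summed FPKM ran from 655 to 932 in HFWT and from 473 to 696 in HFKO. Hepatocyte genes leaned the other way: 17 of 19 were positive, the median was 0.23, and summed FPKM ran from 42409 to 59093 in HFWT and from 54334 to 67135 in HFKO. Endothelial genes were mostly positive too, 20 of 26, with a median of 0.17 and no DEG. The part that cell composition has in any single difference was not tested.

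The few immune genes that passed were of low level, and Gdf3 had overlap. Clec4e (ENSMUSG00000030142.4, chr6:123281789-123289870), the macrophage receptor Mincle that senses dead cells and mycobacterial lipid, had an FPKM of 0.775, 0.994, 1.15, 1.24 and 1.08 in HFWT and 0.511, 0.76, 0.56, 0.346 and 0.645 in HFKO (log2FC -0.81 ± 0.19 SE, FDR = 0.0464). Mnda (ENSMUSG00000026536.8, chr1:173896355-173912922), an interferon-inducible nuclear protein of myeloid cells, had an FPKM of 7.67, 5.27, 7.14, 6.16 and 5.26 in HFWT and 2.94, 3.95, 4.61, 3.13 and 4.64 in HFKO (log2FC -0.70 ± 0.16 SE, FDR = 0.0408). Neither overlapped, though the lowest HFWT library of Clec4e was just above the highest HFKO library. Gdf3 (ENSMUSG00000030117.4, chr6:122605403-122610087), a TGF-β family ligand, had an FPKM of 2.15, 1.42, 1.76, 1.42 and 1.93 in HFWT and 0.128, 0.511, 0.392, 0.262 and 2 in HFKO (log2FC -1.71 ± 0.40 SE, FDR = 0.0408). HFKO5 was as high as WT. Tgtp2, an interferon-induced GTPase, was 2.86 ± 0.866 FPKM in HFWT and 1.31 ± 0.253 in HFKO (log2FC -1.04 ± 0.22 SE, FDR = 0.0266). Clec4e was called without 3 of the 20 mice in turn, Gdf3 without 7, Mnda without 13 and Tgtp2 without 14. Of the 14 alternatives, Gdf3 was called under 9, Mnda under 10 and Tgtp2 under 13. Clec4e was called under 5 of the 13 that tested it. Of the 31-base words of Tgtp2, 90.5% are also in its neighbour copies, chiefly Tgtp1. For Mnda 78.9% of the words occur in other genes, most of all in Ifi205.

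Among genes of cell stress, Ddit3 and Casp12 were lower. Ddit3 (ENSMUSG00000025408.9, chr10:127290774-127296288), the transcription factor CHOP of the unfolded protein response, had an FPKM of 12.8, 15.4, 9.36, 12.8 and 9.02 in HFWT and 6.82, 6.64, 7.302, 4.87 and 6.19 in HFKO (log2FC -0.87 ± 0.17 SE, FDR = 0.0176). Casp12 (ENSMUSG00000025887.4, chr9:5345430-5373032), a caspase of the endoplasmic reticulum, had an FPKM of 3.44, 3.096, 3.62, 3.72 and 4.02 in HFWT and 1.89, 2.397, 2.45, 1.57 and 2.897 in HFKO (log2FC -0.68 ± 0.14 SE, FDR = 0.0236). In both the groups were apart. Ddit3 was the 1 DEG of 32 unfolded protein response and heat shock genes (median -0.22), and the only one of 28 ATF4 targets (median -0.067, 9 positive). Ddit3 was called without 18 of the 20 mice and Casp12 without 16, and the call for Casp12 also ended with a pseudocount of 1, under median of ratios scaling and in the CDAHFD libraries alone. Nfe2l2, the transcription factor NRF2, passed the FDR below the fold threshold (log2FC -0.44, FDR = 0.0177), and the 32 genes of its response held no DEG, with 28 negative and a median of -0.21. Egr1 (ENSMUSG00000038418.7, chr18:34859823-34864984), an immediate early transcription factor, was higher: FPKM was 10.2, 10.7, 6.72, 18.9 and 8.71 in HFWT and 14.4, 61.6, 53.7, 24.8 and 28.5 in HFKO (log2FC 1.61 ± 0.36 SE, FDR = 0.0312). HFKO1 lay below HFWT4, and none of the other 23 immediate early genes tested was called. Egr1 was called without 13 of the 20 mice in turn. Its call ended in the CDAHFD libraries alone and with the replicate number as a block in the limma fit (FDR = 0.0635).

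Meg3, Rian and Npy were also lower in HFKO. Meg3 and Rian are long noncoding RNAs transcribed from the maternal copy of the imprinted Dlk1-Dio3 region, and they lie 32.2 kb apart. Meg3 (ENSMUSG00000021268.11, chr12:109541001-109571726) had an FPKM of 12.4, 3.905, 8.22, 7.51 and 4.64 in HFWT and 1.83, 2.38, 2.52, 1.93 and 3.16 in HFKO (log2FC -1.50 ± 0.24 SE, FDR = 0.00226). Rian (ENSMUSG00000097451.3, chr12:109603940-109661716) had an FPKM of 5.11, 1.41, 3.26, 2.07 and 1.76 in HFWT and 0.746, 1.21, 0.993, 0.728 and 1.098 in HFKO (log2FC -1.29 ± 0.26 SE, FDR = 0.0168). Both groups were apart in both genes, with HFWT1 highest. Between the pair, 3 small transcripts had log2FCs of -1.56 (Mir1188), -1.40 (Gm24564) and -1.30 (DQ267102) and were not called. Meg3 and Rian were the DEGs among 13 imprinted genes, a list drawn up after the values were seen, whose median was -0.11.

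Npy (ENSMUSG00000029819.6, chr6:49822710-49829507), neuropeptide Y, had an FPKM of 3.25, 3.56, 1.92, 2.57 and 2.56 in HFWT and 0.8, 0.565, 1.08, 1.16 and 1.21 in HFKO (log2FC -1.45 ± 0.28 SE, FDR = 0.0143). Every HFWT library lay above every HFKO library. On the control diet Npy was close to 0 in both genotypes (0.0364 ± 0.051 in NDWT and 0.0328 ± 0.045 in NDKO), and so was Meg3 (0.0468 ± 0.0129 in NDWT and 0.0768 ± 0.0246 in NDKO). The calls for Npy and Meg3 held without each of the 20 mice, while those of Meg3 and Rian ended when the CDAHFD libraries were fitted alone. With a pseudocount of 0.01 the calls for Rian and Npy ended, and the FDR of Npy was 0.344. Npy held 5 to 13 fragments in each HFKO library.

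Chromosome 2, which carries Thbs1, held 17 of the 72 DEGs. Within 30 Mb of Thbs1 on chromosome 2, 16 of 342 tested genes (4.68%) were DEGs, 3 higher and 13 lower, against 56 of 13731 (0.408%) elsewhere. Of the 16, 14 were also DEGs on the control diet, and of the 56 elsewhere 21 were. Because these genes are neighbours, they are not independent of one another, and no test was run on their number.

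**Figure D3:**
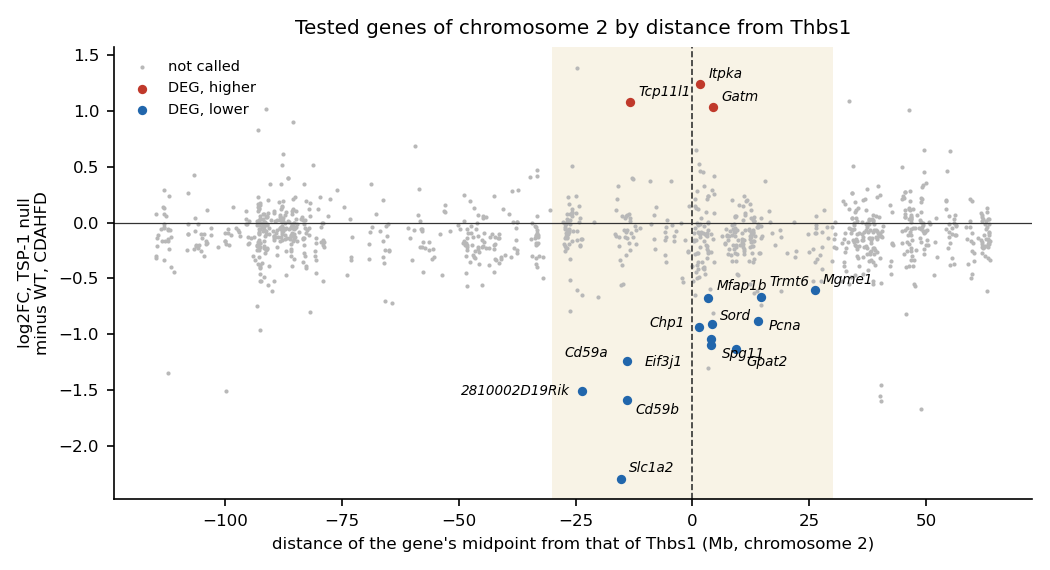
Log2FC of HFKO minus HFWT (vertical axis) of the tested genes of chromosome 2 against the distance of each gene's midpoint from that of Thbs1 in Mb (horizontal axis), with the 30 Mb window shaded. The 16 DEGs within the window lie on both sides of Thbs1, and 1 further chromosome 2 DEG, Gm24561, is left out because its libraries hold 3 fragments or fewer in WT.

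Slc1a2, described above, is 1 of the 13 lower genes. Sord (ENSMUSG00000027227.7, chr2:122234749-122265340), which turns sorbitol to fructose, had an FPKM of 674, 655, 649, 625 and 677 in HFWT and 370.1, 342, 370.1, 373 and 294 in HFKO (log2FC -0.91 ± 0.09 SE, FDR = 5.38e-06). Chp1 (ENSMUSG00000014077.7, chr2:119547697-119587027), a calcium-binding protein, had an FPKM of 92.2, 126, 107, 99.6 and 96.2 in HFWT and 55.97, 53.1, 52.5, 55.5 and 52.4 in HFKO (log2FC -0.94 ± 0.07 SE, FDR = 1.76e-07). Mean FPKM in HFKO was 0.533-fold of WT for Sord and 0.518-fold for Chp1. Cd59a (ENSMUSG00000032679.6, chr2:104095801-104115354), a cell surface inhibitor of the complement attack complex, had an FPKM of 25.7, 30.6, 31.7, 25.4 and 30.8 in HFWT and 12.96, 12.6, 11.5, 13.97 and 9.68 in HFKO (log2FC -1.24 ± 0.09 SE, FDR = 6.04e-08). Its copy Cd59b, 4.61 kb away, fell from 1.04 ± 0.309 to 0.273 ± 0.0686 (log2FC -1.59 ± 0.27 SE, FDR = 0.00424). No HFKO library of Cd59b passed the cut of 0.5, so it was tested through HFWT alone. With 2 DEGs of 48, the complement and coagulation list thus owed both to this 1 locus.

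Gatm (ENSMUSG00000027199.8, chr2:122594467-122611303), which makes the creatine precursor guanidinoacetate, was among the 3 that were higher. Its FPKM was 8.96, 9.41, 7.56, 7.1 and 7.27 in HFWT and 14.1, 15.4, 15.5, 15.6 and 23.3 in HFKO (log2FC 1.03 ± 0.14 SE, FDR = 0.00029). Itpka, an inositol trisphosphate kinase, rose from 1.71 ± 0.609 to 4.08 ± 0.981 FPKM (log2FC 1.25 ± 0.20 SE, FDR = 0.00331), and Tcp11l1 from 1.38 ± 0.203 to 3.02 ± 0.367 (log2FC 1.08 ± 0.19 SE, FDR = 0.00748). Gatm lies 329 kb from Sord, Itpka 155 kb from Chp1 and Tcp11l1 542 kb from Cd59a, so neighbours moved in opposite directions. The other lower DEGs of the window were Spg11 (log2FC -1.04 ± 0.12 SE, FDR = 2.63e-05), a protein of lysosome renewal, Gpat2 (log2FC -1.13 ± 0.24 SE, FDR = 0.0224), a glycerol phosphate acyltransferase, Trmt6 (log2FC -0.66 ± 0.11 SE, FDR = 0.00379), a subunit of a tRNA methyltransferase, Mgme1 (log2FC -0.61 ± 0.12 SE, FDR = 0.0176), a mitochondrial exonuclease, Mfap1b (log2FC -0.67 ± 0.09 SE, FDR = 0.00034) and 2810002D19Rik (log2FC -1.51 ± 0.22 SE, FDR = 0.00087).

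Pcna and Eif3j1 were lower while near copies of each on other chromosomes were higher. Pcna (ENSMUSG00000027342.8, chr2:132249162-132253314), the sliding clamp of DNA replication, had an FPKM of 22.9, 23.3, 22.7, 23.8 and 24.3 in HFWT and 11.5, 12.5, 12.1, 11.5 and 15.9 in HFKO (log2FC -0.89 ± 0.07 SE, FDR = 4.48e-07). Pcna-ps2 (ENSMUSG00000067608.4, chr19:9283238-9284494), a processed copy on chromosome 19, had an FPKM of 0.399, 0.675, 0.824, 0.718 and 0.736 in HFWT and 4.504, 3.66, 4.69, 4.19 and 3.84 in HFKO (log2FC 2.497 ± 0.26 SE, FDR = 1.03e-05). No library overlapped in either. Fragments of both together amounted to 57.0 ± 1.58 ppm of the assigned fragments in HFWT and 35.7 ± 4.09 in HFKO. None of the other 49 cell cycle genes tested was a DEG, and the median of that list was -0.10.

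The coding sequence of Pcna and the copy differ at 6 of 781 aligned bases (99.2% identity). A stretch with 3 of the differences, in capitals, shows how little tells their reads apart (positions 580 to 699 of the Pcna coding sequence, 5′ to 3′).
Pcna: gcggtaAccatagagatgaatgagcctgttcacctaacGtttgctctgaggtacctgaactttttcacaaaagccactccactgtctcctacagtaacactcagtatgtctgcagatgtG
Pcna-ps2: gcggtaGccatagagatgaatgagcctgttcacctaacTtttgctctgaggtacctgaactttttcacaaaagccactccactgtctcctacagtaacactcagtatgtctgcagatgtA

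Eif3j1 (ENSMUSG00000027236.8, chr2:122028546-122056598), a subunit of translation initiation factor 3, had an FPKM of 8.83, 9.08, 9.14, 8.82 and 12.2 in HFWT and 4.23, 4.71, 4.48, 4.47 and 4.13 in HFKO (log2FC -1.10 ± 0.10 SE, FDR = 7.55e-07). Its copy Eif3j2 (ENSMUSG00000043424.9, chr18:43475418-43477836) had an FPKM of 0.553, 0.483, 0.469, 0.642 and 0.909 in HFWT and 6.89, 6.77, 6.07, 6.13 and 5.34 in HFKO (log2FC 3.18 ± 0.17 SE, FDR = 9.65e-10). The direction was opposite without overlap. Gm3650, 0.249 kb from Eif3j2, was at 0 in 4 HFWT libraries and 0.134 in HFWT4, and between 2.599 and 3.82 FPKM in HFKO. Set against a floor of 3 fragments per library that is at least 16.3-fold higher. Of the 31-base words of Eif3j2, 94.9% also occur in other genes, mostly Eif3j1, and of those of Gm3650, 95.7% occur in Spg11. Over Eif3j1, Eif3j2 and Gm3650 together the sum was 57.6 ± 8.86 ppm in HFWT and 43.4 ± 2.76 in HFKO. Spg11, itself a lower DEG, shares 965 words with Eif3j1 and is not in this sum. How far shared reads account for the opposite directions was not tested.

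A second cluster lay on chromosome 19. Ide (ENSMUSG00000056999.8, chr19:37268743-37337852), the protease that degrades insulin, had an FPKM of 27.5, 24.8, 26.8, 23.3 and 23.9 in HFWT and 13.5, 12.2, 11.3, 13.6 and 11.9 in HFKO (log2FC -1.01 ± 0.07 SE, FDR = 6.52e-08). Fgfbp3 (ENSMUSG00000047632.10, chr19:36917550-36919615), a carrier of fibroblast growth factors, had an FPKM of 2.58, 2.63, 2.14, 2.23 and 1.96 in HFWT and 0.69, 0.758, 0.941, 0.6 and 1.07 in HFKO (log2FC -1.42 ± 0.18 SE, FDR = 0.000184). Btaf1 (ENSMUSG00000040565.7, chr19:36926079-37012752), a regulator of the TATA-binding protein, had an FPKM of 6.54, 7.65, 7.49, 5.55 and 7.36 in HFWT and 4.39, 4.26, 3.75, 4.47 and 4.698 in HFKO (log2FC -0.66 ± 0.10 SE, FDR = 0.00127). All 3 were apart between the groups, and the means were 0.495-fold (Ide), 0.351-fold (Fgfbp3) and 0.624-fold (Btaf1) of WT. Ide and Fgfbp3 lie in a segment whose copy number is known to vary among C57BL/6J mice, and copy number was not measured here. Of 21 tested genes from 1 Mb before to 1 Mb after the cluster, these 3 were called. From Btaf1 to the far end of Ide lie 4 of the others: Cpeb3 (log2FC -0.03), March5 (-0.01), Rpl10-ps6 (-0.42, FDR = 0.509) and Gm22714, which held 3 fragments or fewer in each CDAHFD library.

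Mitochondrial DNA held 3 DEGs among 31 tested genes, beside 0.512% of all genes, and they are neighbours. mt-Tg, mt-Nd3 and mt-Tr lie end to end at chrM:9391-9458, chrM:9459-9806 and chrM:9808-9875. mt-Nd3, a subunit of respiratory complex I, had an FPKM of 16.7, 15.6, 24.9, 19.3 and 30.8 in HFWT and 4.82, 2.57, 3.67, 4.07 and 3.92 in HFKO (log2FC -2.44 ± 0.21 SE, FDR = 4.88e-07). These values rest on 102 to 185 fragments in each HFWT library and 14 to 37 in each HFKO library. Summed FPKM over the 13 mitochondrial messenger RNAs was far larger, 15002 to 26459 in HFWT and 15509 to 24550 in HFKO. mt-Tg, the glycine tRNA, had an FPKM of 6.56, 3.902, 7.25, 4.42 and 3.403 in HFWT and mt-Tr, the arginine tRNA, one of 0.82, 5.46, 2.18, 2.21 and 11.9. Both were at 0 in all 5 HFKO libraries. Against a floor of 3 fragments per library they were at least 2.16-fold (mt-Tg) and 1.91-fold (mt-Tr) lower. For mt-Tr the HFWT libraries held 1, 7, 3, 3 and 14 fragments, and without HFWT5 the bound was 1.13-fold. Both tRNAs, like Gm3650 and Snord49b, were tested through 1 group alone, with no library of the other above the cut.

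The 68 bases of each tRNA are shown because both were listed at 0 in all 5 HFKO libraries, with the anticodon in capitals (5′ to 3′, plus strand, reference of the C57BL/6J mitochondrial genome).
mt-Tg: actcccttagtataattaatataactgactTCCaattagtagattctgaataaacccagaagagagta
mt-Tr: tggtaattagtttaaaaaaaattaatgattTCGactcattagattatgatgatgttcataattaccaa
Neither shares a 31-base word with another gene, whereas 98.1% of the words of mt-Nd3 occur in the nuclear copy Gm28438. How far shared reads account for the low mt-Nd3 values was not tested. Among the other 12 tested mitochondrial messenger RNAs no DEG was found, and the median over all 13 was -0.03. Gm10222, a nuclear copy whose words all occur in mt-Nd4l, was higher (8.96 ± 3.403 FPKM in HFWT and 17.6 ± 4.01 in HFKO, log2FC 1.00 ± 0.23 SE, FDR = 0.0391), with overlap, while mt-Nd4l was not called (log2FC -0.54, FDR = 0.3).

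**Figure D4:**
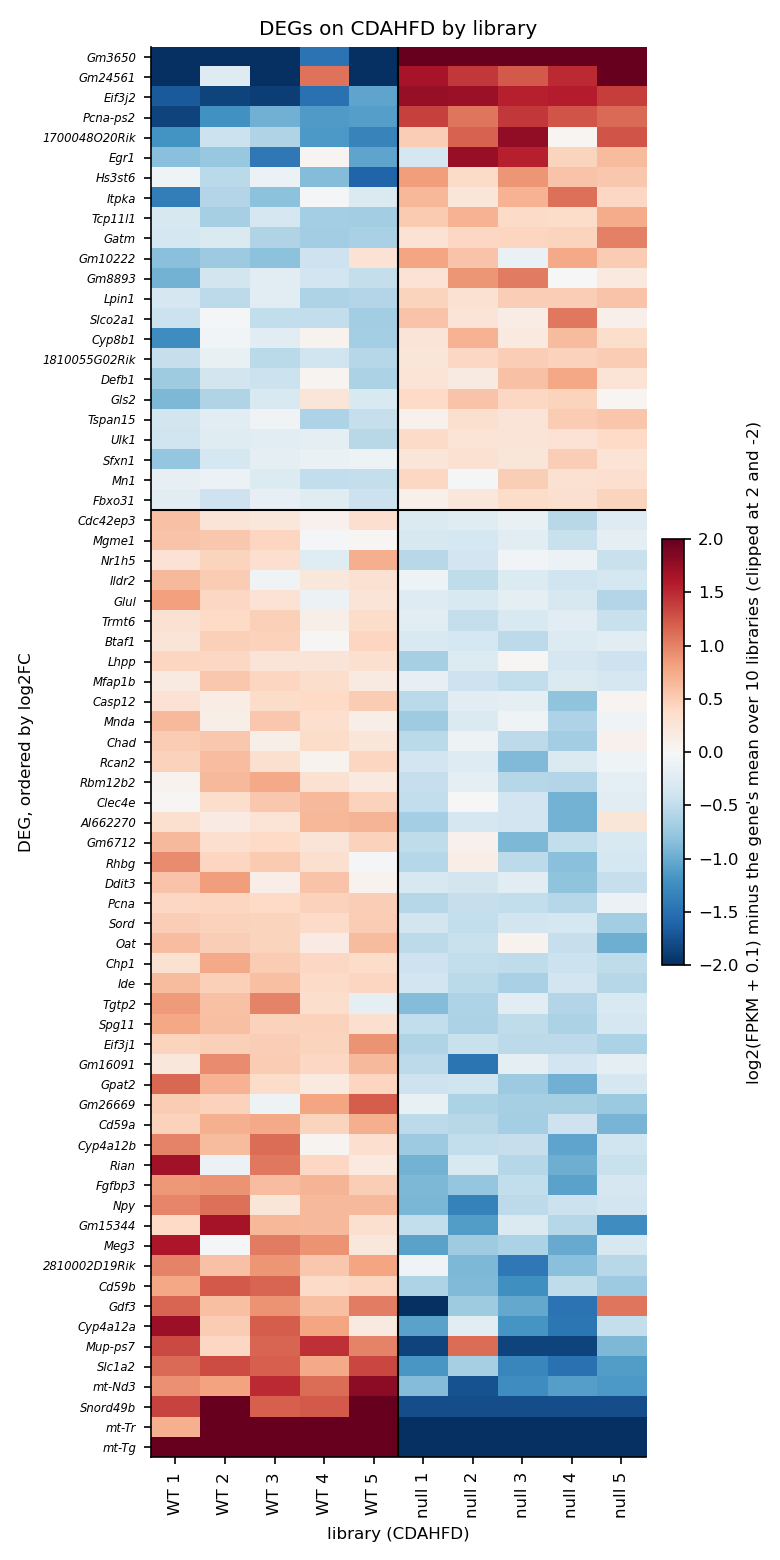
Values of 70 of the 72 DEGs (rows, by log2FC) in the 10 CDAHFD libraries (columns), coloured by log2(FPKM + 0.1) minus the gene's mean over the 10 and clipped at 2 and -2. The 23 higher genes shown fill the upper block and the 47 lower genes the lower block, and single libraries that depart from their group, such as HFKO5 in Gdf3 and HFKO2 in Mup-ps7, are visible.

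The remaining higher DEGs had log2FCs from 0.58 to 3.25. Gm8893, related to the Serpina1a antitrypsin genes by 75.2% of its words (log2FC 0.96 ± 0.19 SE, FDR = 0.0147), Defb1, a β-defensin (log2FC 0.83 ± 0.18 SE, FDR = 0.0275), 1810055G02Rik (log2FC 0.84 ± 0.17 SE, FDR = 0.0176), Tspan15, a tetraspanin (log2FC 0.69 ± 0.13 SE, FDR = 0.0143), and Fbxo31, an F-box protein of ubiquitin ligases (log2FC 0.58 ± 0.13 SE, FDR = 0.0362), were without overlap. Gm24561 held 3 fragments or fewer in each HFWT library and was at least 1.45-fold higher. Hs3st6, a heparan sulfate sulfotransferase, and Mn1, a transcriptional coregulator, are described with the control diet below.

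Of the remaining lower DEGs, Chad, a cartilage matrix protein (log2FC -0.71 ± 0.16 SE, FDR = 0.0362), Rcan2, a calcineurin regulator (log2FC -0.76 ± 0.17 SE, FDR = 0.0362), Ildr2, a membrane protein of liver lipid handling (log2FC -0.64 ± 0.15 SE, FDR = 0.0384), Rbm12b2, an RNA-binding protein (log2FC -0.79 ± 0.16 SE, FDR = 0.0231), Gm6712 (log2FC -0.85 ± 0.19 SE, FDR = 0.0312), Gm16091 (log2FC -1.10 ± 0.26 SE, FDR = 0.0408), Gm26669 (log2FC -1.14 ± 0.26 SE, FDR = 0.0362) and Gm15344 (log2FC -1.48 ± 0.32 SE, FDR = 0.0301) had no overlap. Nr1h5, the nuclear receptor FXRβ (log2FC -0.62 ± 0.15 SE, FDR = 0.0482), AI662270 (log2FC -0.84 ± 0.19 SE, FDR = 0.0323) and Mup-ps7 (log2FC -2.14 ± 0.45 SE, FDR = 0.0246) overlapped. Snord49b, a small nucleolar RNA, was at 0 in HFKO and at 3 fragments or fewer in each HFWT library, so no fold is given. Nr1h5 was called without 2 of the 20 mice in turn, the fewest of any DEG.

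Over the same 14073 genes, the comparison of NDKO with NDWT gave 681 DEGs (4.84%), against 72 on CDAHFD. Of the 72 CDAHFD DEGs 35 were DEGs there too (48.6% of the 72 and 5.14% of the 681), and all 35 had the same direction. The 2 comparisons share no library. Among the 35 were Slc1a2 (-1.31 on the control diet), Sord (-1.27), Chp1 (-1.33), Cd59a (-1.40), Ide (-1.25), Pcna (-0.64), mt-Nd3 (-2.56), Gatm (0.75), Gls2 (0.72), Cyp8b1 (0.67), Ddit3 (-0.79), Cyp4a12a (-1.13) and Cyp4a12b (-0.68), all as log2FC. The other 37, 11 higher and 26 lower, were not DEGs on the control diet, and 25 of them had the same sign on the control diet.

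**Figure D5:**
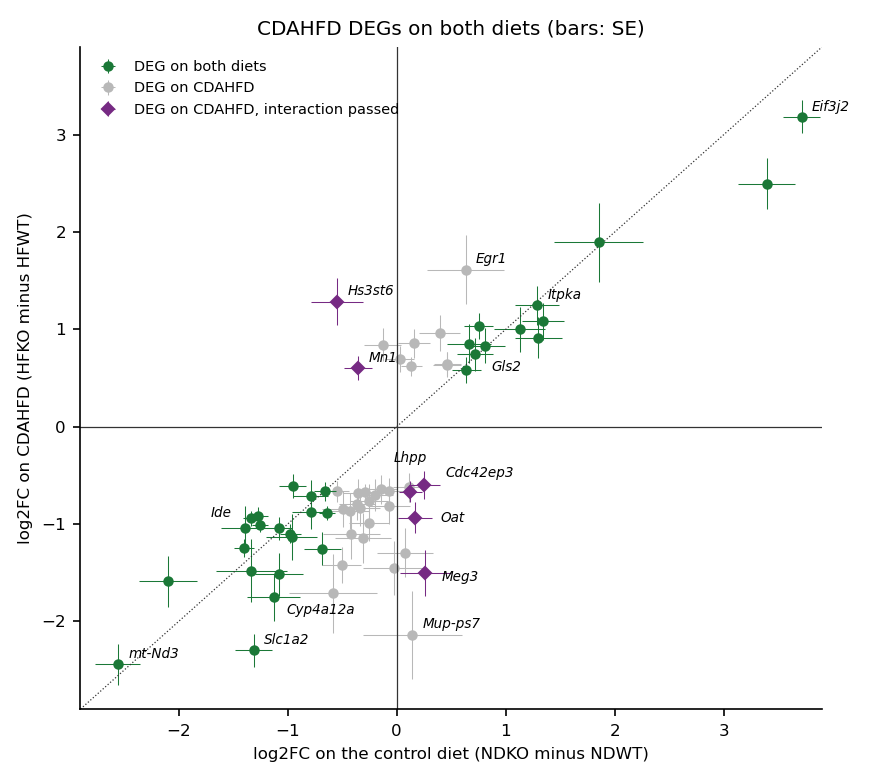
Log2FC on CDAHFD (vertical axis) against log2FC on the control diet (horizontal axis), each with its SE, for 67 CDAHFD DEGs, leaving out 5 with a group at 3 fragments or fewer. Green points (DEGs on both diets) lie near the dotted line of equal change, and the 6 purple points (Hs3st6, Mn1, Cdc42ep3, Lhpp, Oat and Meg3) passed the test of the difference between diets.

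The difference between diets was tested by the interaction, which 99 genes passed (0.703%). It was passed by 7 of the 72: Hs3st6 and Mn1, higher in HFKO, and Oat, Lhpp, Meg3, Cdc42ep3 and Snord49b, lower. Oat had a control diet FPKM of 547, 490.3, 445, 648 and 742 in NDWT and 674, 559.5, 638, 609 and 699 in NDKO (log2FC difference -1.10 ± 0.22 SE, FDR = 0.0256). Those groups overlapped, unlike the CDAHFD groups. Lhpp had 51.7, 51.8, 37.6, 54.6 and 50.1 in NDWT and 56.4, 56.5, 52.7, 47.1 and 54.04 in NDKO (log2FC difference -0.79 ± 0.15 SE, FDR = 0.0189). The neighbouring pair thus differed by genotype on CDAHFD and by less on the control diet, where neither was called. For Glul, which was not called on the control diet (336 ± 36.3 in NDWT and 320.2 ± 31.96 in NDKO), the interaction did not pass (log2FC difference -0.59 ± 0.18 SE, FDR = 0.125), nor did it for Rhbg (FDR = 0.442), Slc1a2 (FDR = 0.0508) or Gls2 (FDR = 0.974).

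Hs3st6 (ENSMUSG00000039628.8, chr17:24753003-24758683) had an FPKM of 1.42, 1.001, 1.38, 0.781 and 0.427 in HFWT and 2.75, 1.99, 2.87, 2.28 and 2.24 in HFKO (log2FC 1.29 ± 0.24 SE, FDR = 0.0114), beside 1.85 ± 0.314 in NDWT and 1.26 ± 0.324 in NDKO. The signs were opposite on the 2 diets (log2FC difference 1.83 ± 0.34 SE, FDR = 0.0174). Mn1 (ENSMUSG00000070576.4, chr5:111417362-111457033) had an FPKM of 3.69, 3.81, 3.42, 2.904 and 2.96 in HFWT and 5.51, 4.08, 5.83, 5.13 and 5.23 in HFKO (log2FC 0.60 ± 0.13 SE, FDR = 0.0236), beside 4.01 ± 0.503 in NDWT and 3.14 ± 0.577 in NDKO (log2FC difference 0.96 ± 0.18 SE, FDR = 0.018). Cdc42ep3, an effector of the GTPase Cdc42, had 4.13 ± 0.569 in HFWT and 2.68 ± 0.283 in HFKO (log2FC -0.60 ± 0.14 SE, FDR = 0.0437), beside 0.839 ± 0.204 in NDWT and 1.01 ± 0.174 in NDKO (log2FC difference -0.85 ± 0.20 SE, FDR = 0.0493). Meg3 passed as well (log2FC difference -1.76 ± 0.33 SE, FDR = 0.018), with control diet levels near 0. On the control diet the pericentral list had a median of -0.01, with 1 higher and 1 lower DEG of 28, and the periportal list a median of 0.57, with 9 higher DEGs of 20. The unfolded protein response list, with 1 DEG on CDAHFD, had 22 lower DEGs of 32 on the control diet (median -0.87). These list values were not tested against each other.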

How the data were processed

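RNA from 20 mouse livers was sequenced, 5 mice in each of 4 groups set by the sample labels. The authors deposited 1 table of FPKM per gene, with 3 decimals. The submitters' processing notes name STAR 2.5.2 and featureCounts of Subread 1.5.1. These notes name GRCh38, but 99.8% of the 37607 gene identifiers found in GENCODE M21 overlap their gene on GRCm38, which is used here. FPKM give shares of the assigned fragments, so a rise in abundant transcripts lowers the rest. Whole fragments were recovered from FPKM, gene length and library total (tolerance 0.02), and no column of per-sample values was left unused.

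Differences were tested with limma 3.58.1 in R 4.3.3, with the eBayes trend option, on log2(FPKM + 0.1) with all 20 libraries in 1 fit. DEGs were called at an FDR (Benjamini-Hochberg, two-sided) below 0.05 and a log2FC beyond 0.58 in either direction, the thresholds of the study's methods. Each limma p-value sets a difference between group means against the spread between mice within groups. That spread is pooled over all 4 groups, so the control diet mice enter the CDAHFD p-values. The model was tested on simulated data. Groups whose 5 libraries each hold 3 fragments or fewer are taken to be at the floor, which covers counting error only. No pair of libraries within a group was a copy of another. Gene lists carry no test: they are described by counts and medians. Members and lists were chosen with earlier results of these data known, and 3 lists (pericentral, periportal and imprinted genes) after the values were seen. Genes named are the 12 largest DEGs without overlap in each direction, DEGs in a list, near Thbs1, called on both diets or passing the interaction, list members with the lowest p, and Thbs1, its receptors and fibrosis markers. The remaining DEGs, the small transcripts between Meg3 and Rian and the genes around Ide were added after their values were seen. Values of 2 DEGs are not reported here. Alternatives were other pseudocounts, filters, scalings, fits, precision weights, a replicate block and leaving out each mouse.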

Additional observations from a re-analysis of the deposited data

Results flagged for a closer look

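In 13 of 152 groups of 5 values examined, the highest or lowest library stood far from the other 4 (gap over 0.71 of the group's range). Chance alone gives such a library in about 1 of 20 groups. For Gm3650 HFWT4 was at 0.134 FPKM with the other 4 HFWT libraries at 0, and HFKO5 was the low library of its group at 2.599. HFKO5 was the high library for Gatm at 23.308, Pcna at 15.852 and Gdf3 at 2.0, HFKO4 for Sfxn1 at 37.403, HFKO1 for Gm26669 at 0.927 and HFKO2 for Mup-ps7 at 0.687. In HFWT, the high libraries were HFWT5 for Eif3j1 at 12.205 and HFWT2 for Gm15344 at 9.958. HFWT5 lay at -52.4 on the second principal component, and held 189998 FPKM of Gm23935 and 24418 of Gm26924, both noncoding genes. Gatm, Pcna and Eif3j1 were called without each of the 20 mice in turn, Sfxn1 without 18, Mup-ps7 without 15, Gm15344 without 14, Gm26669 without 12 and Gdf3 without 7.

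The genotype difference on CDAHFD differed from that on the control diet, by the interaction term of the fit over all 20 libraries, for 6 DEGs with levels above the floor. The interaction, CDAHFD log2FC minus control diet log2FC, was 1.83 for Hs3st6, 0.96 for Mn1, -0.85 for Cdc42ep3, -0.79 for Lhpp, -1.10 for Oat and -1.76 for Meg3. The count of genes passing the interaction ranged from 37 to 182 when 1 mouse was left out.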

How the results depend on the processing

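The number of CDAHFD DEGs (72, of which 24 higher and 48 lower) became 127 without the filter on low values (38 and 89), 126 after quantile normalization (76 and 50), 65 with median of ratios scaling (39 and 26), 168 without the fold threshold (37 and 131), 41 in the 10 CDAHFD libraries alone (12 and 29) and 136 with limma voom on recovered fragments (38 and 98). Leaving out 1 mouse gave 37 to 85 DEGs, 11 to 30 higher and 26 to 62 lower, the fewest without HFKO4. Of the 72, 23 were called under all 14 alternatives and without each mouse (6 higher, 17 lower), 34 without each mouse, and none of 2439 values changed sign. The 681 control diet DEGs became 377 with a pseudocount of 1, 436 after quantile normalization and 1898 without the fold threshold, and 518 to 755 with 1 mouse left out. The 99 interaction genes became 54 without the filter, and 37 (without NDKO4) to 182 (without NDKO2) with 1 mouse left out. They were also more than 1.5 times fewer without HFWT3 (53), HFWT4 (62), HFKO1 (43), HFKO2 (49), HFKO4 (46), NDWT3 (48) or NDKO1 (47), and without HFWT2 there were 66. For the principal component scores on CDAHFD, the difference in the first component, 32.5, was 47.2 with a pseudocount of 0.01, 33.9 with median of ratios scaling and 39.8 without HFKO5, each with an adjusted p of 0.0317, and ranged from 4.49 to 39.8 with 1 mouse left out. Without HFKO4 the second component passed instead of the first (exact permutation test, adjusted p of 0.0317). The log2FC of Tnf was 0.014 with median of ratios scaling and 0.053 after quantile normalization, and -0.26 to 0.010 with 1 mouse left out. With 1 mouse left out that of Tgfb1 ran from -0.11 to 0.092 and that of Col1a1 from -0.061 to 0.27. The cause of these shifts was not tested.

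With the replicate number as a block (replicate block) there were 60 CDAHFD DEGs (21 higher, 39 lower), 653 on the control diet and 82 by the interaction. Of the 72 DEGs 56 were called with the block. Same-numbered CDAHFD libraries had correlations of -0.163 to 0.047 in their deviations from the group means, and none best matched its own number. On the control diet these ran from -0.101 to 0.095, and replicates 4 and 5 best matched their own numbers. Whether a number stands for something the mice shared was not tested. With 5 mice a group and no molecular identifiers, genes near the FPKM cut rest on few fragments.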
